A study of Mus musculus with 4 samples.

Results

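The genes described here encode 35 enzymes or enzyme-like proteins of histone lysine methylation, 22 methyltransferases and 13 demethylases, out of 21951 protein-coding genes. Their MILI-bound small RNAs were taken to be the listed sequences that matched a transcript of 1 of these genes, in sense or antisense, and a transcript of no other gene. This gave 16464 of the 4906138 listed sequences, of which 16175 were sense and 289 antisense. MILI (Piwil2), a PIWI protein of male germ cells, had been immunoprecipitated from the testes of C57BL/6 males aged 14 days post partum. There were 4 libraries, 2 from Tdrd9-/- mice, which lack the RNA helicase TDRD9, and 2 from Tdrd9+/- mice, which keep 1 intact allele. Whether a library came from 1 animal or from several is not given in the sources used here. The table pools all libraries and holds neither read counts nor library names, so the genotypes could not be compared and no replicate error exists. Values below are therefore numbers of distinct sequences or of distinct 5′ ends, and abundant and rare RNAs count alike. The depth per library is unknown.

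Methyltransferases of the SET family and the DOT1 family add methyl groups to lysines of histone tails or of the nucleosome face. Demethylases of the KDM1 type use a flavin cofactor, and those with a JmjC domain use iron and oxoglutarate, to take the groups off again. Methylation of H3K4 and H3K36 marks promoters and transcribed gene bodies, and methylation of H3K9 and H3K27 marks silent chromatin. In germ cells these marks shape meiotic recombination, silencing of the sex chromosomes and control of transposons. PIWI proteins bind piRNAs, which come from intergenic clusters, from transposons and, before the pachytene stage, also from the messenger RNAs of many ordinary genes. Such genic piRNAs typically begin with U.

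The listed RNA carried the markers of germ cells. All 6 germ cell markers examined had 100 or more sequences, with a median of 57.1 distinct 5′ ends per kb. Over all protein-coding genes 24.9% had 100 or more, and the median was 5.74. None of the 6 Sertoli cell markers reached 100, which at that share says little by itself. Together they had 55 sequences, with Sox9 highest at 27, and a median of 2.19 ends per kb. The 4 Leydig cell markers had 1 sequence in all.

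The sequences below show what the RNAs of these messengers look like. For the 3 members with the most and the 3 with the fewest 5′ ends per kb in each class, and for Setdb2, the 5′ end that carried the most distinct sequences was taken. The longest sequence of at most 30 nt at that end is printed 5′ to 3′ as the table gives it, with T for U, and the capitals mark position 1 and position 10. Position 1 is where primary piRNAs carry U, and position 10 is where piRNAs made by slicing carry A.
Nsd1 (chr13:55415991-55416019, plus strand, 3′ UTR): TgagaatgtAgtgtcccagaagtgaacaa
Setd2 (chr9:110451818-110451847, plus strand, coding sequence): TgatacttgTaggcagcataatacgtcaaa
Nsd2 (chr5:34238613-34238641, plus strand, 3′ UTR): TaaactattGagcacagagggaggtaacc
Setdb2 (chr14:60028305-60028332, minus strand, coding sequence): GgagattctGaagacacacagctgactg
Kmt2d (chr15:98682362-98682391, minus strand, coding sequence): TgaactctcAagtgcccaggatgcaggcat
Setd1a (chr7:134929055-134929082, plus strand, coding sequence): TgatacagaGgaagaggaagagaacagc
Setd1b (chr5:123607006-123607033, plus strand, coding sequence): TgagcacaaGgacgaggacaggccaaag
Kdm2a (chr19:4343047-4343076, minus strand, coding sequence): TgaagaaaaCtttgtctggagactcatcct
Kdm7a (chr6:39089632-39089659, minus strand, 3′ UTR): TagtcatttCtgtatggtatagcttgga
Kdm3a (chr6:71561925-71561954, minus strand, coding sequence): AagtaccgaGaacaaaaccagatgtctgca
Kdm2b (chr5:123330570-123330598, minus strand, coding sequence): TgagatccaAaagacggagagcaccctgg
Kdm4c (chr4:73944382-73944409, plus strand, coding sequence): TcttggatgTggttgaagaagagtgtgg
Kdm1b (chr13:47167283-47167309, plus strand, coding sequence): AgcttttgtGaaggagtctggcatcca
Positions are those of the mouse build mm9. The fullest end of Nsd1 carried 8 sequences that shared a start and ran from 22 to 29 nt, and that of Setd1b carried 2. Over the 34 members for which a sequence was taken, the fullest end began with U in 31, with A in 2 and with G in 1, and it began with UG in 22. It lay in coding sequence in 25 members, in the 3′ UTR in 8 and in the 5′ UTR in 1, Kdm6b.

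Methyltransferase and demethylase messengers both gave more sequences than most genes, with large differences inside each class. Every one of the 35 members had sense sequences, from 41 for Kdm1b to 2976 for Nsd1. In all, 19 of 22 methyltransferases and 8 of 13 demethylases had 100 or more sense sequences, against 24.9% of all protein-coding genes. Nsd1, Kmt2a, Setd2 and Ash1l had 1000 or more, as did 0 of 13 demethylases and 1.52% of all protein-coding genes. The members' transcripts are long, and of the 11442 protein-coding genes whose longest transcript is at least as long as the shortest among the members (2787 nt, Ezh2), 39.5% reached 100. Each gene's distinct 5′ ends, on any of its transcripts, were divided by the length of its longest transcript. The median over methyltransferases was 30.6 ends per kb, and the range 4.40 to 125. Demethylases had a median of 24.2 and a range of 7.42 to 70.9. The median was 5.74 over all protein-coding genes and 11.1 over the 11442 at least as long as the shortest member. That limit is not a match of length: the median longest transcript measured 7364 nt in methyltransferases and 5180 nt in demethylases. The classes overlapped widely: 14 of 22 methyltransferases lay above the demethylase median and 5 of 13 demethylases above the methyltransferase median, while 2 methyltransferases lay above every demethylase and 2, Setd1b and Setd1a, below every one. With sequences that also match another gene, Setd1a had 24.5 ends per kb and no longer lay below them. Among the 35 members, 34 lay above the median of all protein-coding genes and Setd1b lay below it.

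**Figure D1:**
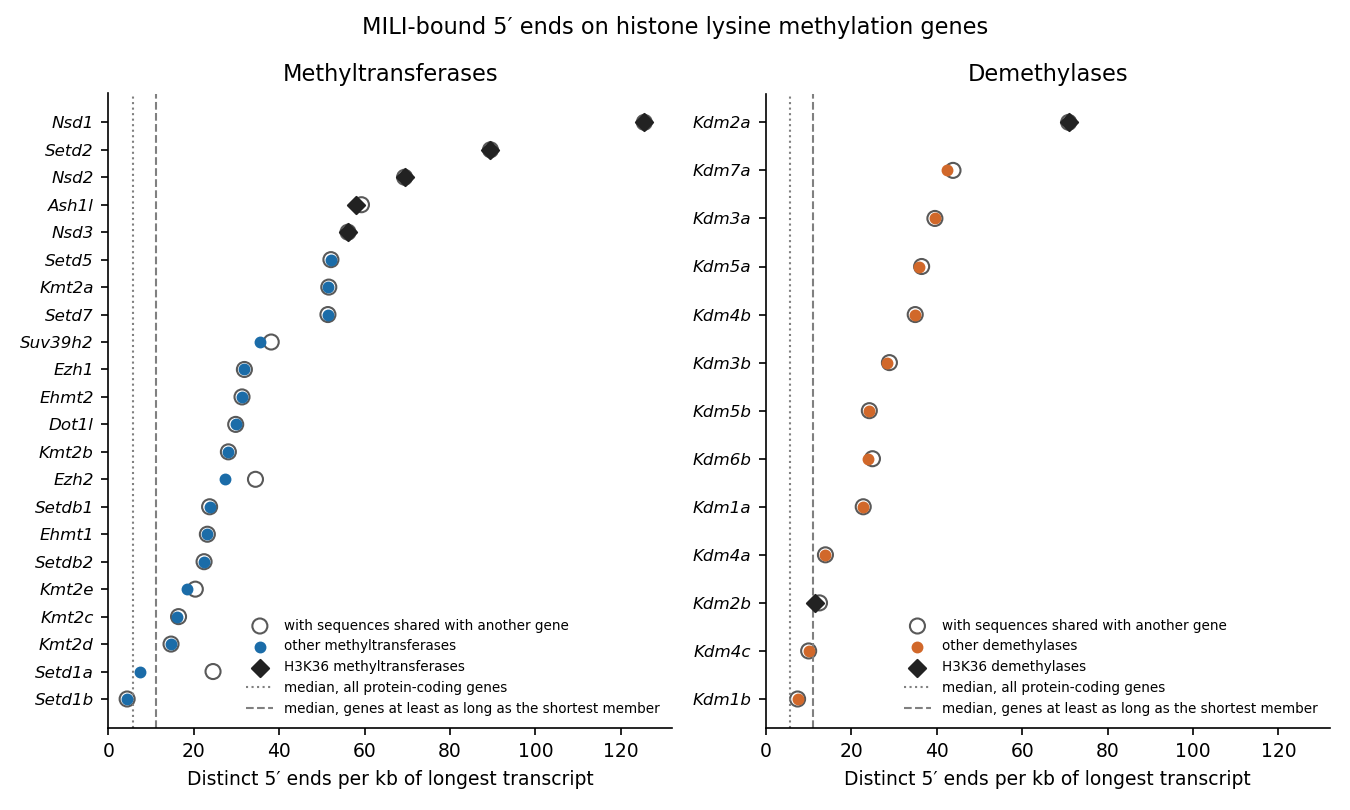
Distinct 5′ ends relative to the longest transcript, in ends per kb (x axis), for each of the 22 methyltransferase genes (left) and 13 demethylase genes (right), pooled over the 4 libraries. Filled symbols count sequences of 1 gene only, with black diamonds for H3K36 enzymes, open circles add sequences that also match another gene, and vertical lines give the medians of all protein-coding genes (dotted, 5.74) and of those at least as long as the shortest member (dashed, 11.1); the 5 H3K36 methyltransferases stand at the top of their class, and Setd1a moves most between filled and open symbols.

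Among the 22 methyltransferases that are members, the 5 enzymes assigned to H3K36 held the 5 highest densities. Their median was 69.4 ends per kb, against 27.3 for the other 17, of which Setd5 was highest at 52.1. That median is the value of Nsd2, many of whose ends lay off the longest transcript. Nsd1, which places the lower methylation states of H3K36, came first with 1604 ends and 125 ends per kb of its 12784-nt transcript, above 99.2% of protein-coding genes. Its sequences covered 77.9% of the transcript. Setd2, the enzyme for H3K36 trimethylation behind elongating RNA polymerase, followed with 1355 sequences at 747 ends, or 89.5 per kb. The NSD paralogs Nsd2 and Nsd3 had 811 and 919 sequences and 69.4 and 56.1 ends per kb. Ash1l, an H3K36 methyltransferase that opposes Polycomb silencing, had 1115 sequences and 58.0 ends per kb. The NSD family thus spanned 2.24-fold. The place of Nsd2 depended on which ends and which length were counted. The value of 69.4 divides its 540 ends, on any of its transcripts, by its longest transcript alone. Its transcript with the longest coding sequence carried 330 ends. Counting only ends on the transcript of the longest coding sequence, Nsd2 had 46.2 ends per kb and rank 8. With only ends on its longest transcript, at positions where 27 nt fit inside 1 exon, it had 33.1 and rank 10. With all its ends per kb of all exons together it had 32.1 and rank 8. The first 5 ranks held 4 of the H3K36 enzymes with the longest coding sequence, 4 with the exon limit and 3 over all exons. All these ranks are among the members only. Of 17 further lysine methyltransferases, Prdm2 was highest at 68.2 ends per kb of its longest transcript, above Ash1l and Nsd3.

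The H3K4 methyltransferases covered the widest range, 11.7-fold. Kmt2a (MLL1), required for Hox gene expression in development, had 1363 sequences and 51.5 ends per kb, and its paralog Kmt2b had 340 and 28.1. Setd7, which monomethylates H3K4 and many other proteins in vitro, had 637 sequences and 51.4 ends per kb. The pair Kmt2c and Kmt2d, which mark enhancers, was low and nearly equal at 16.0 and 14.7 ends per kb on transcripts of 14967 and 19823 nt. Setd1b, a catalytic subunit of the complex that lays down most H3K4 trimethylation, had 43 sequences and 4.40 ends per kb, the lowest of all members. Its paralog Setd1a had 60 sequences and 7.40 ends per kb, but another 139 sense sequences also matched Gm49388, a protein-coding gene annotated on the same chromosome, and were left out. With them Setd1a had 199 sequences. The density of Setd1a counted with its own sequences alone is therefore a lower limit, whereas for Setd1b no sequence was left out.

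Among enzymes of silent chromatin, the 5 H3K9 methyltransferases among the members ranged from 22.4 to 35.6 ends per kb. Suv39h2, the testis-rich member of the pair that methylates pericentric heterochromatin, was highest of these with 228 sequences. Its partner Suv39h1, which is not a member and is named after its value was seen, had 238 sequences and 47.2 ends per kb, above that range. Ehmt2 (G9a) and its partner Ehmt1 (GLP), which form a heteromer for H3K9 dimethylation, had 31.3 and 23.2 ends per kb. Setdb1, which silences endogenous retroviruses with the cofactor TRIM28, had 177 sequences and 23.7 ends per kb, set against a retained-intron transcript as its longest. Setdb2 had 77 sequences and 22.4. The Polycomb enzymes Ezh1 and Ezh2 had 31.9 and 27.3 ends per kb, with 192 and 103 sequences, and 29 further sequences of Ezh2 were left out because they were antisense to the lincRNA Gm26625. Dot1l, the H3K79 methyltransferase, had 264 sequences and 29.8 ends per kb. Setd5 and Kmt2e, SET-domain proteins with no firmly established histone methyltransferase activity, had 510 and 172 sequences and 52.1 and 18.3 ends per kb.

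Among demethylases, paralogs with the same substrate differed by up to 6.12-fold. Kdm2a, a JmjC demethylase of H3K36 that binds CpG islands, had 982 sequences and 70.9 ends per kb, above 96.0% of protein-coding genes. Its paralog Kdm2b, which also recruits a variant Polycomb complex, had 80 sequences and 11.6 ends per kb. Kdm7a, which removes H3K9 and H3K27 methylation, had 645 sequences and 42.4 ends per kb. The H3K9 demethylases Kdm3a, needed for spermatid maturation, and Kdm3b had 39.6 and 28.3 ends per kb, with 270 and 225 sequences. In the KDM4 family, which acts on H3K9 and H3K36, Kdm4b had 34.96 ends per kb (244 sequences), Kdm4a 13.9 (77 sequences) and Kdm4c 10.01 (50 sequences). The H3K4 demethylases Kdm5a and Kdm5b had 536 and 308 sequences and 35.8 and 24.2 ends per kb. The flavin-dependent enzymes Kdm1a (LSD1) and Kdm1b (LSD2, which oocytes need to set imprints) had 88 and 41 sequences and 22.8 and 7.42 ends per kb. Kdm6b, an H3K27 demethylase, had 218 sequences and 23.9 ends per kb.

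The remaining lists of histone modification genes varied widely around the members' values. Of 17 further lysine methyltransferases 10 had 100 or more sequences, with a median of 30.2 ends per kb, the highest being Prdm2 at 68.2 and the lowest Mecom with 0 sequences. Of 12 further demethylases and JmjC relatives 5 had 100 or more, with a median of 9.72, from Phf2 at 1.82 to Riox1 at 58.9. Subunits of PRC2 and of COMPASS, the complexes that hold the EZH and the KMT2 or SETD1 enzymes, had medians of 23.6 and 23.7, with 5 of 9 and 8 of 14 genes at 100 or more. Partners of the H3K9 methyltransferases had a median of 33.4 (8 of 10 genes), with Cbx5 highest at 195. Partners of LSD1 and other demethylases had 19.7 (7 of 11). Arginine methyltransferases had 24.9 (5 of 9) and lysine acetyltransferases 38.5 (9 of 10). The share of all protein-coding genes at 100 or more was 24.9%, as above, and these lists were not tested against it.

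Messengers with dense ends also had more sequences per end. The number of sequences per distinct end ran from 1.10 in Setd1b to 1.86 in Nsd1, was 1.60 over the methyltransferases and 1.46 over the demethylases, and was 1.57 over all protein-coding genes. Across the 35 members it had a Pearson correlation of 0.870 and a Spearman correlation of 0.875 with ends per kb, as a description across genes that share the same libraries. For transcript length and ends per kb the correlations were 0.182 (Pearson) and 0.168 (Spearman) across the 22 methyltransferases, and 0.534 and 0.527 across the 13 demethylases. The 3 fullest genes held 45.9% of the methyltransferase sequences and 57.5% of the demethylase sequences. All sequences of all 35 members lay on the chromosome of the gene.

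Coding sequence and 3′ UTR both gave sequences, in proportions that differed from gene to gene. On the transcript with the longest coding sequence, coding sequence held 62.4% of the methyltransferase ends (61.2 to 63.5%, exact Clopper-Pearson 95% interval, which covers counting error over distinct ends only) on 72.0% of the nucleotides, and 54.3% of the demethylase ends (52.3 to 56.3%) on 59.4%. The 3′ UTR held 36.2% of the methyltransferase ends (35.1 to 37.3%) on 25.1% of the nucleotides, and 42.5% of the demethylase ends (40.6 to 44.4%) on 37.03%. In methyltransferases the pooled density was 58.3 ends per kb of 3′ UTR and 35.1 per kb of coding sequence, and in demethylases it was 35.2 and 28.0. Single genes carried part of this difference. Without Nsd1 the methyltransferase 3′ UTR density was 44.1 per kb and the coding density 31.5, and without Kdm7a the demethylase values were 29.7 and 28.9. The 5′ UTR, which is short in these genes, had 19.9 ends per kb in methyltransferases and 27.3 in demethylases.

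Counted gene by gene, the 3′ UTR was not generally the denser region. For 23 members each region measured at least 100 nt and the transcript carried 50 or more ends. Of these, 6 of 13 methyltransferases and 3 of 10 demethylases had a denser 3′ UTR than coding sequence, against 42.9% of 4662 protein-coding genes that met the same limits. The members' share, 39.1%, was near this background. The median ratio of 3′ UTR to coding density was 0.968 in methyltransferases and 0.711 in demethylases, against 0.849 over the 4662 genes. Kdm7a had the highest ratio, 3.78, with 54.95 ends per kb of its 6588-nt 3′ UTR and 14.5 per kb of coding sequence. Among methyltransferases Nsd3 (2.19), Setd5 (2.16) and Nsd1 (2.07) were highest. At the other end, the ratio was 0.186 in Kdm4a and 0.275 in Setdb2. The 100-nt limit also held for the 5′ UTR and so left out, among others, Setd2, Ehmt1 and Kmt2a. Their 5′ UTRs measured 82, 40 and 22 nt, and their ratios were 0.176, 0.241 and 1.76. Kmt2e had 0 ends in 1188 nt of 3′ UTR against 102 in coding sequence, but 15 ends of its 3′ UTR were left out because their sequences were also antisense to Srpk2, and with them its ratio was 0.694.

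**Figure D2:**
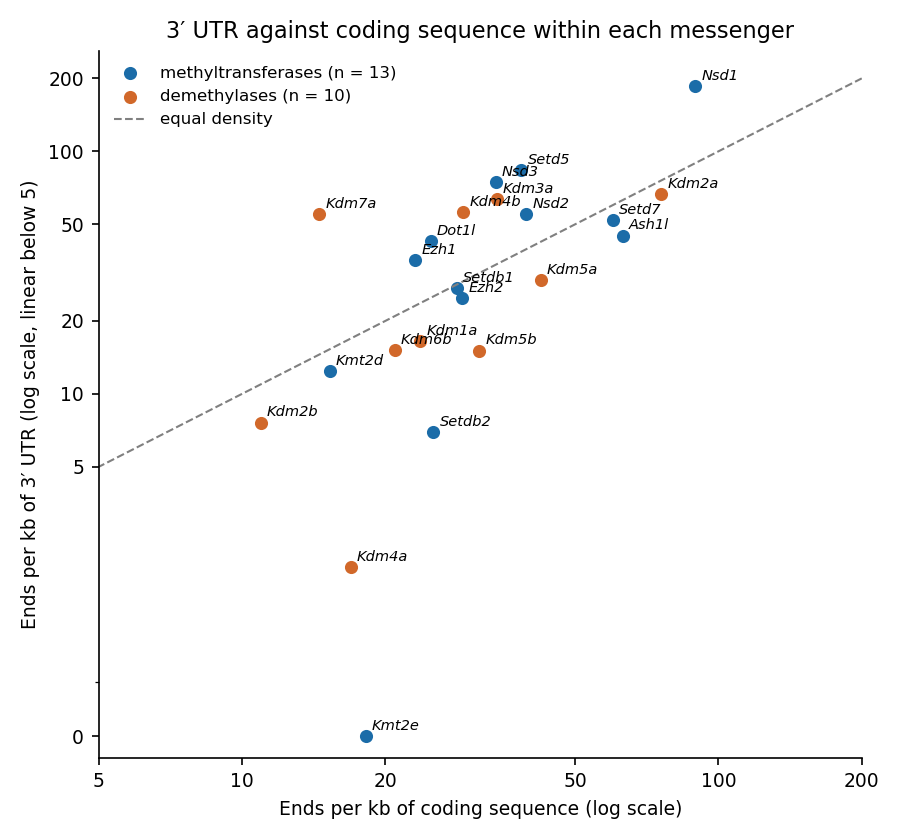
Distinct 5′ ends per kb of 3′ UTR (y axis, logarithmic above 5 and linear below) against ends per kb of coding sequence (x axis, logarithmic) for the 13 methyltransferases and 10 demethylases that carry 50 or more ends and whose regions each measure at least 100 nt. Points above the dashed line of equal density have a denser 3′ UTR; Kdm7a lies farthest above it, and Kmt2e stands at 0 ends of its 3′ UTR when sequences antisense to other genes are left out.

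The table places each sequence in 1 unbroken genome interval, so that sequences over a splice junction could enter only where the overhanging bases also matched the intron. Of 15646 sense sequences on these transcripts, 90 reached over a boundary, with at most 5 nt on the shorter side and at most 3 nt in 87 of them. A 27-nt sequence fits inside 1 exon at 88.4% of the members' coding positions and at 98.8% of their 3′ UTR positions. Counting only such positions left 6 of 13 methyltransferases and 3 of 10 demethylases with the denser 3′ UTR, and moved the median ratios to 0.882 and 0.645.

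Members also differed in where along the messenger the ends lay. In Setd2, cut into successive stretches of 20% of the transcript, the second stretch held 36.99% and the third 29.4% of its 738 ends, and the last held 5.15%. Ash1l had 32.8% of its ends in the first 20% of its transcript. Nsd1 ran the other way, with 34.97% of its ends in the last 20% and its fullest 200-nt window, with 82 ends, 3212 nt after the stop codon. Kdm7a had 53.2% of its ends between 60% and 80% of the way along, all of that stretch being 3′ UTR, and 4.95% in the first 20%. In Kdm2a the ends stopped short of the annotated end: the last 20% of its 8578-nt transcript held 0.512% of its 586 ends, and 886 nt from position 7084 to 7969 held none. Ehmt1 had its last end at position 5026 of 5953 nt. Ends were also uneven on a small scale. The fullest 200-nt window exceeded the mean density of its transcript most in Setd1a, 8.78-fold, with 13 of only 48 ends. The excess was 7.49-fold in Kmt2d and 5.80-fold in Kdm7a, and lowest in Kdm3b, 2.53-fold. Such a maximum also depends on the number of ends and the transcript length, so it does not rank the members by evenness.

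**Figure D3:**
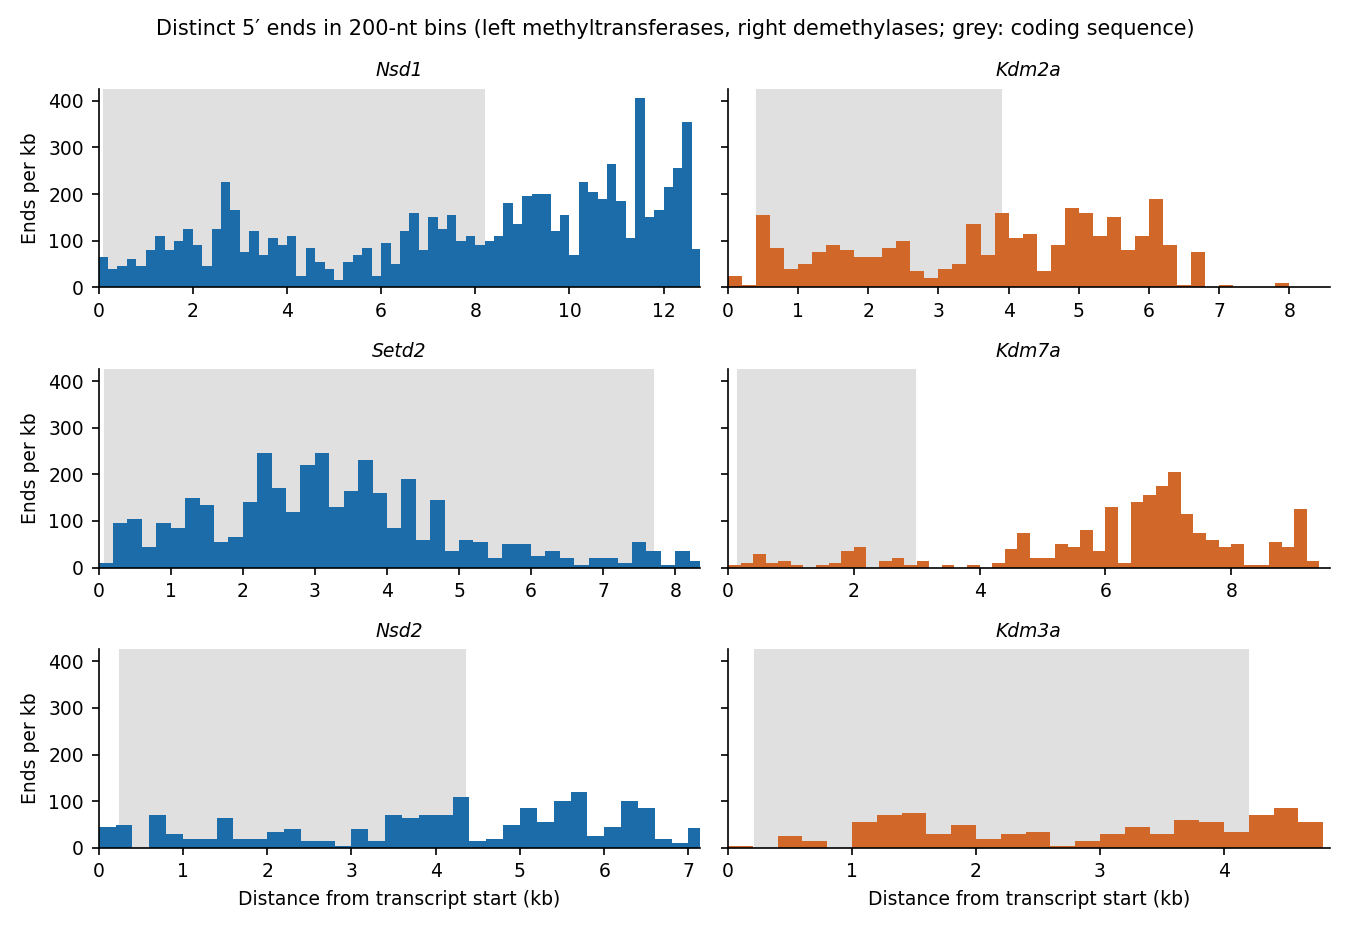
Distinct 5′ ends per kb (y axis) in 200-nt bins along the transcript with the longest coding sequence (x axis, distance from the transcript start in kb). Grey marks the coding sequence. The 3 methyltransferases (left: Nsd1, Setd2, Nsd2) and 3 demethylases (right: Kdm2a, Kdm7a, Kdm3a) had the most ends per kb of the longest transcript. On the transcript shown Nsd2 had 330 ends, against 540 over all its transcripts, and ranked 8 among methyltransferases. Ends pile up towards the 3′ end in Nsd1, in the middle of the coding sequence in Setd2 and within the 3′ UTR in Kdm7a, and they are nearly absent from the end of the Kdm2a transcript.

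**Figure D4:**
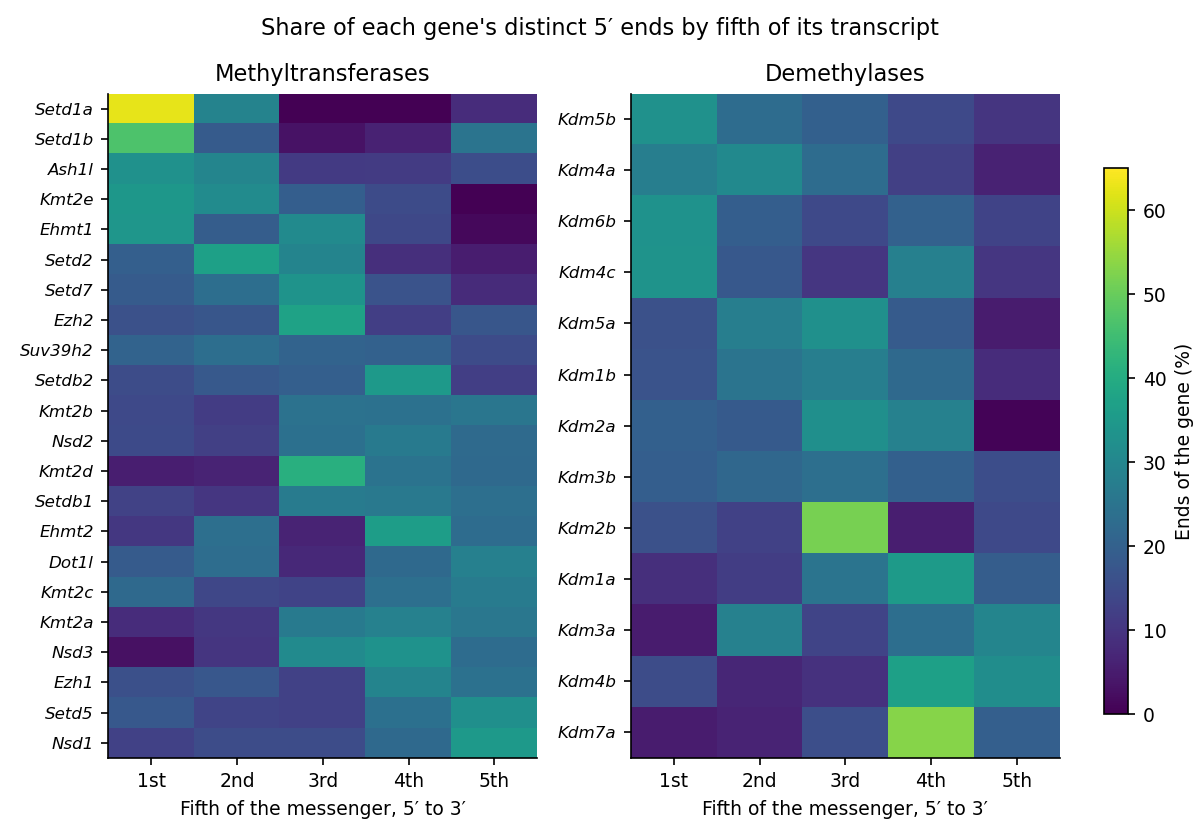
Share of each member's distinct 5′ ends (colour, %) in successive stretches of 20% of its transcript from 5′ to 3′ (x axis), for methyltransferases (left) and demethylases (right), ordered by the median position of the ends. Setd1a has 62.5% in the first stretch and none between 40% and 80% of the way along once the sequences shared with Gm49388 are left out, whereas Kdm7a has 53.2% between 60% and 80%.

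Every member's sequences began with U far more often than its messenger holds U. A 5′ U was carried by 68.6% of methyltransferase sequences (67.8 to 69.4%) and 67.2% of demethylase sequences (65.7 to 68.7%), and the intervals overlapped. These intervals count sequences, and sequences that share a 5′ end share their first base, so they are narrower than the number of separate ends allows. Over all protein-coding genes the share was 69.3%. When each distinct end was counted once, the shares were 60.8% in methyltransferases (59.7 to 61.9%) and 60.2% in demethylases (58.3 to 62.1%). The member transcripts themselves held 18.1 to 30.8% U, so that the 5′ U share was 1.90 to 3.87 times the U content. Across the 35 members the share of 5′ U was only weakly related to the U content of the transcript (Pearson 0.250, Spearman 0.289). Nsd2 had the highest share, 75.96% (72.9 to 78.9%) over the sequences of all its transcripts, and its longest transcript held 28.9% U. Kdm4b reached 74.2% (68.2 to 79.6%) on a transcript with 19.2% U. Setdb2 and Ehmt1 had the lowest shares, 50.6% (39.0 to 62.2%) and 51.8% (44.0 to 59.5%), and Kdm1a the lowest among demethylases, 55.7% (44.7 to 66.3%).

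**Figure D5:**
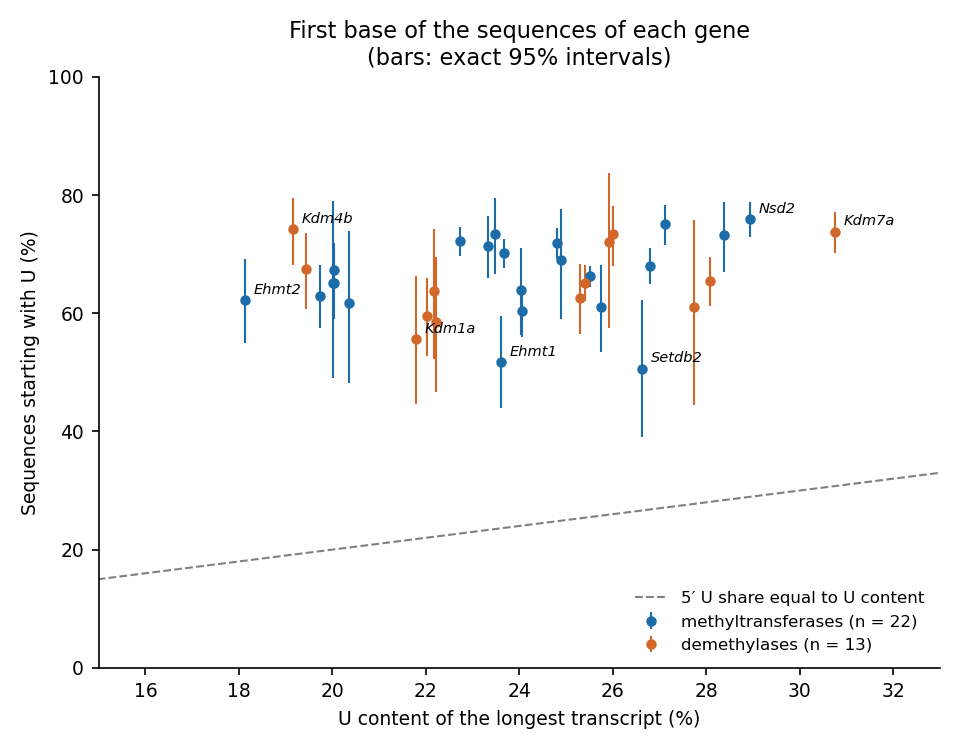
Share of each member's sense sequences that begin with U (y axis, %, with exact Clopper-Pearson 95% intervals) against the U content of its longest transcript (x axis, %), for 22 methyltransferases and 13 demethylases. All points lie above the dashed line at which the 5′ U share would equal the U content; Setdb2 and Ehmt1 are lowest and Nsd2 is highest.

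The share of 5′ U also differed between regions of the messenger. In 3′ UTR sequences it was 71.8% in methyltransferases (70.5 to 73.1%) and 73.5% in demethylases (71.3 to 75.6%). In coding sequence it was 66.2% (65.1 to 67.3%) in methyltransferases and 61.7% (59.5 to 63.9%) in demethylases. With each end counted once, the 3′ UTR shares were 64.3% in methyltransferases (62.4 to 66.1%) and 66.3% in demethylases (63.4 to 69.2%). The coding shares were then 58.3% in methyltransferases (56.8 to 59.7%) and 55.4% in demethylases (52.7 to 58.1%), and the intervals of the classes overlapped in both regions. The 3′ UTRs themselves held 29.5% and 30.9% U in these classes and the coding sequences 21.2% and 21.7%. Relative to that content, U was 2.43-fold and 2.38-fold in excess at the first base of 3′ UTR sequences, and 3.13-fold and 2.85-fold in excess in coding sequence.

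The bases around the first U were also uneven. Among sequences that began with U, G followed in 41.8% for methyltransferases (40.7 to 42.9%) and 43.6% for demethylases (41.7 to 45.6%), whereas G follows 32.6% and 31.8% of the U in the same transcripts. Counted by distinct ends, the shares were 39.8% (38.3 to 41.2%) and 42.3% (39.8 to 44.9%). The base just before the 5′ end was G in 15.7% of the members' sequences, on transcripts with 24.8% G, and A or C in 31.2% and 28.7%. The base just after the 3′ end was U in 25.9%, on transcripts with 23.8% U. A at position 10, the mark of slicing, stood at 32.3% in methyltransferases (31.5 to 33.1%) and 31.7% in demethylases (30.2 to 33.2%), beside 31.8% and 30.6% A on average at positions 11 to 18. Lengths averaged 27.2 nt (SD 1.35 nt) in methyltransferases and 27.2 nt (SD 1.29 nt) in demethylases, against 27.1 nt over all protein-coding genes, and RNAs of a chosen size had been cut from a gel.

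Antisense sequences were few and unevenly spread. They made up 1.38% of the methyltransferase sequences (1.19 to 1.60%) and 2.96% of the demethylase sequences (2.45 to 3.55%), against 4.74% over all protein-coding genes. At least 1 antisense sequence was found for 14 of 22 methyltransferases and 8 of 13 demethylases, where 44.3% of all protein-coding genes had one. Dot1l (58), Kdm6b (42), Setd1a (37) and Kdm1a (33) were the members with 30 or more, as were 3.65% of all protein-coding genes. Those of Setd1a clustered: 26 of the 37 had their lowest genome coordinate within 200 nt on chromosome 7 (134920191 to 134920390, mm9). The windows of the other genes count the same coordinate. Of the 15 of Nsd1, 11 lay within 200 nt on chromosome 13 (55312238 to 55312437). Those of Dot1l and Kdm6b were spread out, with 14 and 11 in their fullest 200 nt. The antisense sequences began with U in 74.1% of cases for Dot1l (61.0 to 84.7%) and 78.6% for Kdm6b (63.2 to 89.7%).

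Slicing by PIWI proteins leaves ends on opposite strands that overlap by 10 nt, and no excess of such ends was detectable. Of 7737 methyltransferase ends, 5 had a partner at 10 nt, against a mean of 5.11 at the other overlaps from 1 to 20 nt (0 to 11). Of 2581 demethylase ends, 2 had one, against a mean of 3.42 (1 to 6). The ratios were 0.979 and 0.585, and they rest on so few ends that the ratio of all protein-coding genes, 1.37, lies inside the counting intervals of both (0.318 to 2.29 and 0.0708 to 2.11). For the members together 0.0678% of ends had a 10-nt partner (0.0273 to 0.140%), against 0.289% over all protein-coding genes (0.280 to 0.298%). Partners at the other overlaps were also less frequent on the members. Their mean was 8.53 for 10318 member ends and 3004 for the 1424388 ends of all protein-coding genes. The share was thus lower at 10 nt and also on average at the other overlaps. The 10-nt ratio was 0.821 for the members together, on 7 ends, and whether the share was lower still at 10 nt was not tested. Ends directly after the 3′ end of another sequence, the mark of stepwise cleavage, numbered 841 in methyltransferases, against a mean of 785 at distances of 2 to 20 nt (720 to 819). In demethylases they numbered 161, against a mean of 161 (144 to 178). Over all protein-coding genes they numbered 128681, against a mean of 126084. The ratios were 1.07 in methyltransferases, 0.999 in demethylases and 1.02 over all protein-coding genes, and their differences were not tested.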

How the data were processed

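Per the labels' protocols, a gel fraction of the MILI-bound RNAs, near 28 to 30 nt, was made into libraries with an Illumina small RNA kit. Per the file headers, the deposited table gives each distinct sequence with its chromosome, start, end and strand, and the build is mm9, per the submitters' processing notes. It holds positions and no counts. No source used here names the aligner or filters. Sequences (18 to 36 nt) were matched exactly, in sense and antisense, to 141767 transcripts of GENCODE M21. That annotation is built on GRCm38, so its exon and coding limits were used within transcripts only and no coordinate was converted. Ends per kb divide distinct genomic 5′ ends, on any transcript of the gene, by the longest transcript. A gene's region values use its transcript with the longest coding sequence. The planned comparison of genotypes was not run, because the table has no counts and no libraries. The members and gene lists were chosen with earlier results of these data known, and substrates follow textbook knowledge. No test was made between genes, since they are not replicates. Every member is named, with fuller values for the 3 densest and the 3 sparsest per class, paralogs and extremes. Of simulated sequences, the matching step recovered 600 of 600 copied from a transcript and 0 of 600 with 1 altered base. Python 3.11.15, numpy 2.4.6, numba 0.67.0, scipy 1.17.1, pandas 2.3.3 and matplotlib 3.10.9 were used.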

Additional observations from a re-analysis of the deposited data

How the results depend on the processing

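For each class, 7 values were recomputed: members with 100 or more sequences, median ends per kb, 5′ U share, members with a denser 3′ UTR, antisense share, 10-nt ratio and A at position 10. Of 102 recomputed values, 97 stayed inside the reported value's counting interval (shares and ratios) or within 1.5 times it (counts and medians). Not every alternative could move a value, so this count overstates how far the results were tried. Keeping only sequences on the gene's own chromosome removed none. The 10-nt ratios were held to wide intervals, 0.318 to 2.29 in methyltransferases and 0.0708 to 2.11 in demethylases. The 5′ U share was 60.8% in methyltransferases and 60.2% in demethylases when distinct ends were counted. Without the fullest member (Nsd1, Kdm2a) the antisense share was 1.66% in methyltransferases and 3.87% in demethylases. Per kb of all exons of the gene together, chosen after seeing the data, the median of demethylases was 13.3 ends per kb, beside 21.3 in methyltransferases. The H3K36 methyltransferases held 3 of the first 5 ranks on that scale, 4 with the transcript of the longest coding sequence and 4 when only positions where 27 nt fit inside 1 exon were counted. Shares of 5′ U by region and of UG were recomputed by distinct ends, also chosen after seeing the data, and all were lower. The cause of these shifts was not tested. No paired analysis was possible because the table names no libraries, and for the same reason no replicate could be left out. Depth cannot be known, and the 10-nt ratios rest on 5 and 2 ends.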
